A study of Mus musculus with 8 samples.

Results

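Nxph4 and Ptgfrn are 2 mouse genes whose promoters carried replication initiation sites (ISs) with some of the lowest ratios of Rif1 knockout to wild-type read density. They were chosen by this ratio, so the Rif1KO over WT values of the promoter ISs are given as a description, and the choice says nothing further about them. The members described here are the ISs that overlapped either gene or its 20 kb flanks in the GENCODE M1 annotation of mm9, namely 23 of 169053 entries in 2 merged tables. Of these, 9 of 39116 lay in the table of WT and Rif1KO cells and 14 of 129937 in the table of Rif1KO_shLacZ and Rif1KO_shMcm6 cells, called the hairpin table here. The promoter IS is the one over the annotated start of the gene or, failing that, the nearest within 1 kb. The ISs chosen were the lowest ratios among ISs whose mean log2 density over WT and Rif1KO was at or above the median of their table. In that order Nxph4 came first at a log2 ratio of -1.24, followed by an IS just upstream of Nxph4 at -1.19 and by Ptgfrn at -1.14. The next, just outside the choice, was the promoter IS of Syde1 at -1.13.

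The ISs came from SNS-seq, the sequencing of short nascent strands, in which short, newly made strands with an RNA primer survive an exonuclease, so that reads pile up where replication starts. The cells were CH12, a mouse B cell lymphoma line (clone F3), and every group was grown with IL4, CD40 and TGF beta stimulation per the labels. The 4 groups of 2 libraries each were WT cells, cells without RIF1 (Rif1KO), and Rif1 knockout cells with a lentiviral hairpin against LacZ, a bacterial gene used as the control target (Rif1KO_shLacZ), or against Mcm6, a subunit of the replicative helicase (Rif1KO_shMcm6). Both hairpin groups thus lacked RIF1. Replicates came from separately thawed vials of cells, and which Rif1 knockout clone was used for SNS-seq is not given in the sources used here. Expression was not analysed here, so the cell type was not checked against its markers. Pooled reads in ISs numbered 3350255 for WT, 3724571 for Rif1KO, 21071351 for Rif1KO_shLacZ and 23602750 for Rif1KO_shMcm6, which is a median of 73, 82, 141 and 160 reads per IS.

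A replication origin is licensed when the MCM helicase is loaded before S phase, and it fires when firing factors later activate that helicase. RIF1 is best known for holding back late origins through protein phosphatase 1. In mammals many efficient origins sit at CpG-rich promoters, and quadruplex-forming G runs are common near them. Nxph4 encodes neurexophilin 4, a secreted glycoprotein of a family known for binding alpha-neurexins at synapses. Ptgfrn encodes the prostaglandin F receptor negative regulator, also called EWI-F, a membrane protein of the immunoglobulin superfamily that associates with the tetraspanins CD9 and CD81.

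Both genes run on the minus strand. Nxph4 (ENSMUSG00000040258.5) occupies chr10:126962529-126971615 and has 1 annotated start. Ptgfrn (ENSMUSG00000027864.7) occupies chr3:100844155-100914201 and has 2 annotated starts, at 100914101 and 100914201. The sequence just upstream of Ptgfrn is shown because its promoter ISs lie over it, and covers the 300 bases before the highest start, chr3:100914202-100914501 in mm9, read in the direction of the gene. The other sequence is the middle of the next IS upstream of Nxph4, chr10:126973609-126973908 on the minus strand, shown because its ratio was close to that of the promoter IS. Capitals mark GGGCGG on either strand, which the upstream IS lacks.
Ptgfrn promoter: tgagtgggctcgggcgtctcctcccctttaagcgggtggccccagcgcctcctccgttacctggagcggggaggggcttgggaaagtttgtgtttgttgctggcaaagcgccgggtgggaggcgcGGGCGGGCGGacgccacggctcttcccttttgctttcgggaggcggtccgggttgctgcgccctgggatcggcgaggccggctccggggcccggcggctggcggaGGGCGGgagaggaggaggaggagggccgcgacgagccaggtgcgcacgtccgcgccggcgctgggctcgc
Nxph4 upstream IS: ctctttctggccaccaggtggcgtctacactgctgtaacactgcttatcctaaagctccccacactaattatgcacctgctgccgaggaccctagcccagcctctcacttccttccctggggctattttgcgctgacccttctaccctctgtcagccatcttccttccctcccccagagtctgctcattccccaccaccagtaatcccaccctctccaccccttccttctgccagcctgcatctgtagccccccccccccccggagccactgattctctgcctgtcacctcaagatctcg

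The promoter window of Ptgfrn was rich in G and C, at 73.3% against a median of 53.3% over 22357 protein-coding promoter windows of the same length. It held 36 CG dinucleotides, against a median of 9. GGGCGG, counted on both strands with overlaps, occurred 3 times, and 40.9% of all windows held it. CCAAT occurred 0 times, and 39.0% of windows held it. The window did not hold TATAAA, which 14.6% of windows did. It held a run of letters with 4 blocks of at least 3 G and loops of 1 to 7 bases, as 20.5% of windows did. The upstream IS of Nxph4 differed in its letters, with 58.7% G and C, 5 CG dinucleotides and 0 matches to any of these 4 patterns. These counts describe letters and not bound sites.

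At Nxph4 the promoter IS was the densest of the 5 ISs in WT cells, and every one of the 5 was less dense in Rif1KO cells. The promoter IS (chr10:126971382-126972148, 767 bp, over exon, UTR, coding and intron sequence and the DNA beyond the start) had 257 reads in WT and 121 in Rif1KO. On the scale of reads per 1000000 reads in ISs (RPM), this was 76.7 in WT with a 95% exact Poisson interval of 67.6 to 86.7, and 32.5 in Rif1KO with an interval of 27.0 to 38.8. The IS was thus less dense in Rif1KO but not absent, since one was still called there, at chr10:126971616-126972105, and 81.8% of the ISs of the table were no denser in that condition. Its log2 fold change was -1.24 with an exact 95% interval of -1.56 to -0.92. These intervals cover counting error only, since reads include PCR copies and both replicates were pooled into 1 value per condition.

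**Figure D1:**
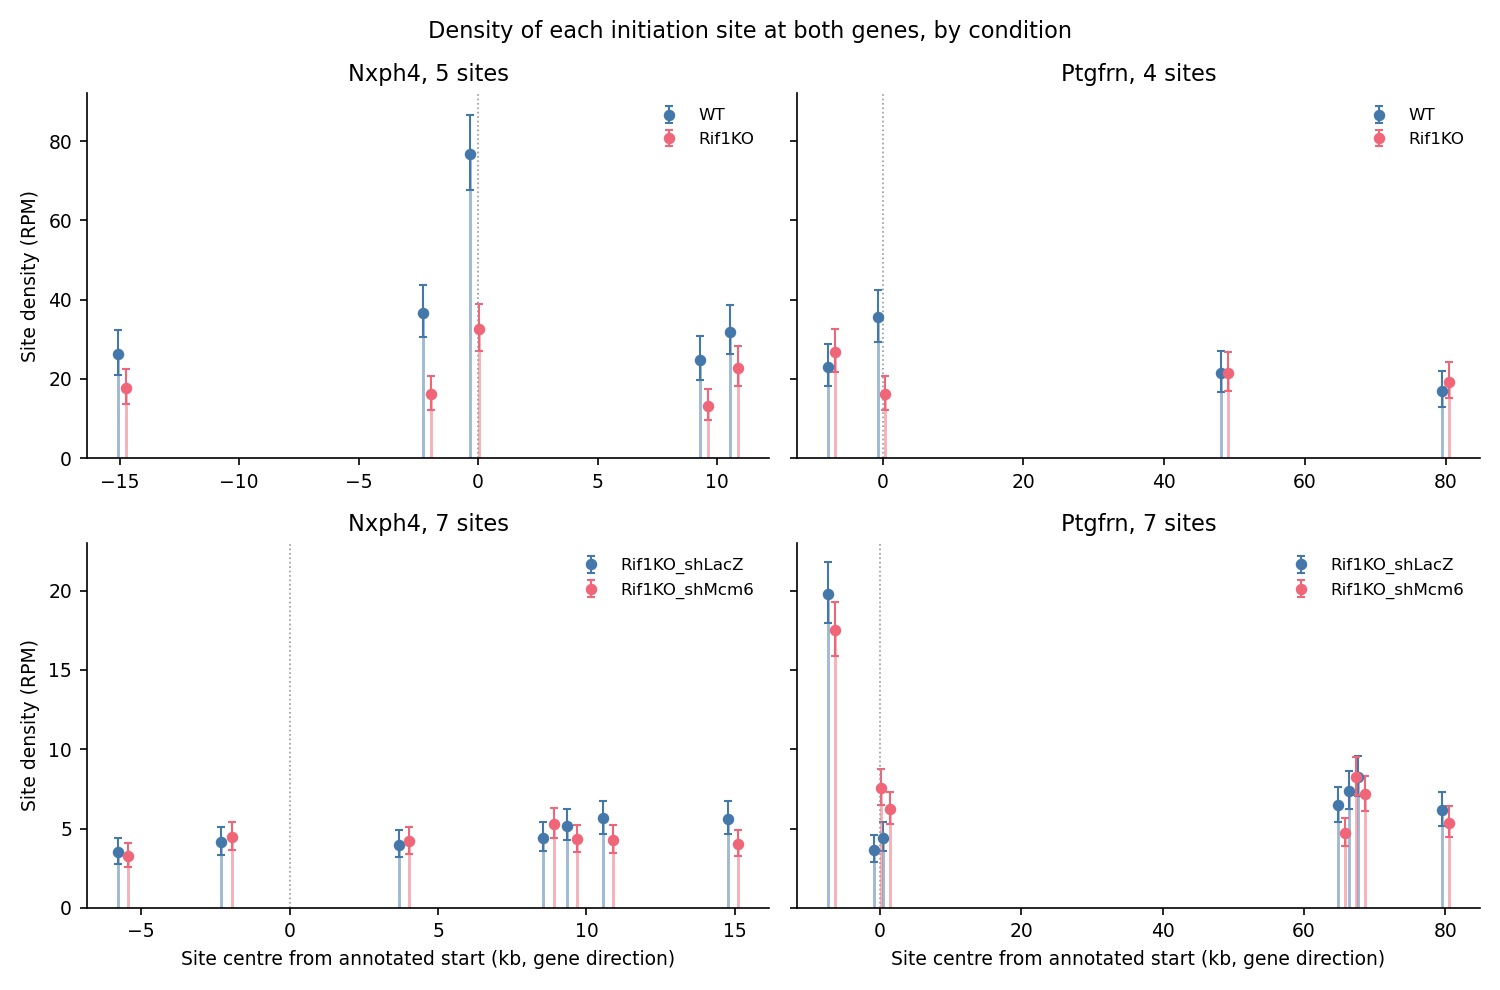
Read density of each IS (RPM, vertical axis, linear from 0) against the distance of its centre from the annotated start in kb in the direction of the gene, with WT and Rif1KO in the top row and Rif1KO_shLacZ and Rif1KO_shMcm6 in the bottom row. Points are pooled values, bars are 95% exact Poisson intervals, the dotted line is the start, and paired points are set slightly apart for legibility. The promoter IS of Nxph4 stands at 76.7 RPM in WT and 32.5 RPM in Rif1KO, and no IS is present at that start in the bottom row.

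The IS upstream of Nxph4 (chr10:126973558-126973959, intergenic, 1943 bp before the start) had 36.7 RPM in WT and 16.1 RPM in Rif1KO. Its log2 fold change was -1.19 (-1.66 to -0.73), an interval that contains that of the promoter IS. Per kb of length the 5 ISs had 62.7 to 100 RPM in WT, with 100 RPM at the promoter IS, 93.9 RPM at the outermost IS beyond the 3' end and 91.3 RPM at the upstream IS. In Rif1KO they had 40.1 to 67.1 RPM per kb, with 42.4 RPM at the promoter IS and the highest value at the outermost 3' IS.

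The remaining 3 ISs of the Nxph4 window showed smaller differences between WT and Rif1KO. An IS beyond the 3' end of the gene, 9287 bp from the start, had 24.8 RPM in WT and 13.2 RPM in Rif1KO, a log2 fold change of -0.91 (-1.45 to -0.39). The next IS beyond it, 10548 bp from the start and nearest to the start of Shmt2, had 31.9 and 22.8 RPM (-0.48, -0.91 to -0.06). An IS in Lrp1, 14698 bp upstream and spanning exon and intron sequence, had 26.3 and 17.7 RPM (-0.57, -1.05 to -0.09). Lrp1 encodes a lipoprotein receptor and Shmt2 the mitochondrial serine hydroxymethyltransferase.

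Of the 5 ISs at Nxph4, 3 were lower by 1.5-fold or more, whereas 2.7% of all 39116 ISs and 8.41% of the 2485 promoter ISs of that table were, and 2.27% of all ISs were higher by that much. The rule used this contrast, so nothing is read from that count. The other 4 ISs summed to 401 reads in WT and 260 in Rif1KO, a log2 fold change of -0.78 (-1.01 to -0.55). The promoter IS differed from them in log2 fold change by -0.46 ± 0.20 (counting SE), with an interval of -0.85 to -0.08. Its share of the reads of the window was 39.1% (95% Wilson interval 35.4 to 42.8%) in WT and 31.8% (27.3 to 36.6%) in Rif1KO. The choice of the promoter IS by this ratio favours such a difference and such shares, and the intervals do not account for it.

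**Figure D2:**
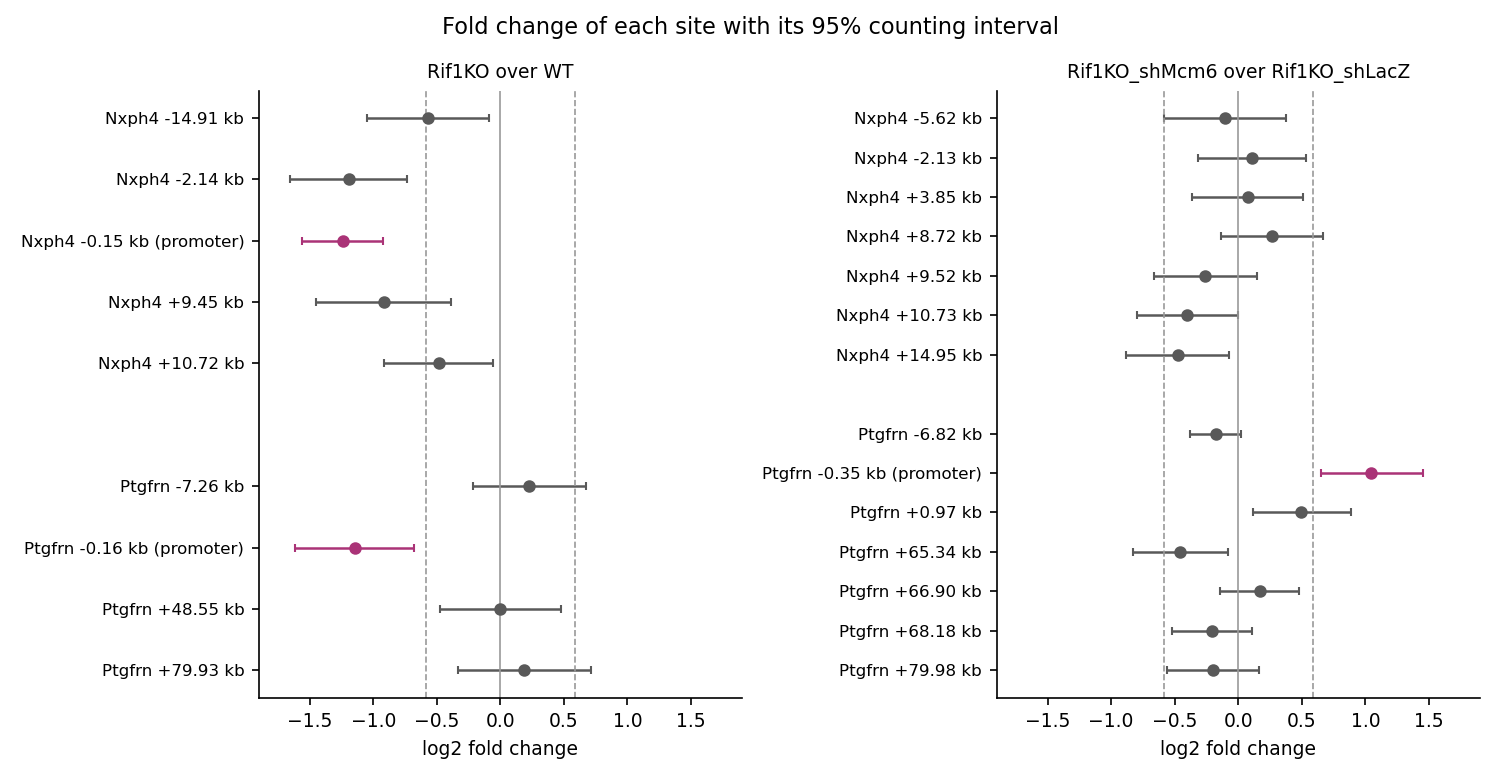
Log2 fold change of each of the 23 ISs (horizontal axis) with its exact 95% counting interval, Rif1KO over WT on the left and Rif1KO_shMcm6 over Rif1KO_shLacZ on the right, named by gene and distance of the centre from the start. Promoter ISs are in purple, dashed lines are 1.5-fold in either direction, and the promoter IS of Ptgfrn is at -1.14 on the left and 1.05 on the right.

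At Ptgfrn the promoter IS was also the densest in WT cells, but it was the only one of 4 ISs whose counting interval lay below 0 and the only one lower by 1.5-fold or more. Its own ratio was the ground of the choice, so that it passed is a description. The promoter IS (chr3:100914065-100914660, 596 bp, over exon and UTR sequence and the DNA beyond the start) had 119 reads in WT and 60 in Rif1KO. This was 35.5 RPM (29.4 to 42.5) in WT and 16.1 RPM (12.3 to 20.7) in Rif1KO, a log2 fold change of -1.14 (-1.61 to -0.68). The IS was called in WT and not in Rif1KO, as were 517 of the 2027 promoter ISs called in WT, or 25.5%. Of the 791 of these at least as dense in WT as that of Ptgfrn, 82 were not called in Rif1KO, or 10.4%. In Rif1KO, 18.7% of ISs were no denser, against 86.3% in WT.

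The other 3 ISs of the Ptgfrn window were at least as dense in Rif1KO as in WT, or nearly so. The upstream IS (7054 bp before the start, intergenic) had 23 RPM in WT and 26.8 RPM in Rif1KO (0.22, -0.22 to 0.67). An intronic IS 48330 bp into the gene had 21.5 RPM in both conditions, and its interval of log2 fold change ran from -0.48 to 0.48. An IS 587 bp from the start of Cd101, which encodes an immunoglobulin superfamily protein of leukocytes, had 17.0 and 19.3 RPM (0.18, -0.34 to 0.71). Each of these intervals includes 0, and none of these ISs passed 1.5-fold.

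The 3 ISs summed to 206 reads in WT and 252 in Rif1KO, a log2 fold change of 0.14 (-0.13 to 0.41). The difference between the promoter IS and these was -1.28 ± 0.27 (counting SE; -1.80 to -0.76). The share of the window's reads at the promoter IS was 36.6% (31.6 to 42.0%) in WT and 19.2% (15.2 to 24.0%) in Rif1KO. Here too the promoter IS was chosen by this ratio. The difference and the shares therefore describe it and are no test, and their intervals leave the choice out of account. Summed over all 4 ISs, the window of Ptgfrn had a log2 fold change of -0.21 (-0.44 to 0.02), and that of Nxph4 -0.94 (-1.13 to -0.76).

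The surroundings of the genes differed in the same contrast. Nxph4 lies in a stretch of chromosome 10, chr10:53664453-129981296, that holds 2038 ISs with a median log2 fold change of -0.45 (quartiles -0.62 and -0.30), whereas the 661 ISs before it had a median of 0.06. Within that stretch 29.0% of ISs and 52.9% of the 136 promoter ISs were lower by 1.5-fold or more. The promoter IS of Nxph4 was eighth lowest there and stood 0.79 below the median of the stretch. Among 202 other ISs within 5 Mb the median was -0.52, and 1 of them was at or below the promoter IS of Nxph4. What set the shift of the stretch was not tested.

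Chromosome 3 did not split, and its 2563 ISs had a median of 0.05. Of these, 0.78% were lower by 1.5-fold or more, as were 7 of 114 promoter ISs, and the promoter IS of Ptgfrn was the lowest of the chromosome. Among 173 other ISs within 5 Mb the median was 0.01, the lowest value -0.76 and none reached that of the Ptgfrn promoter. Relative to the median within 5 Mb, the promoter IS of Ptgfrn was at -1.15 and that of Nxph4 at -0.72. The counting intervals of these centred values were -1.62 to -0.69 and -1.04 to -0.40. Both genes were chosen on this contrast, so they are not compared further by it.

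**Figure D3:**
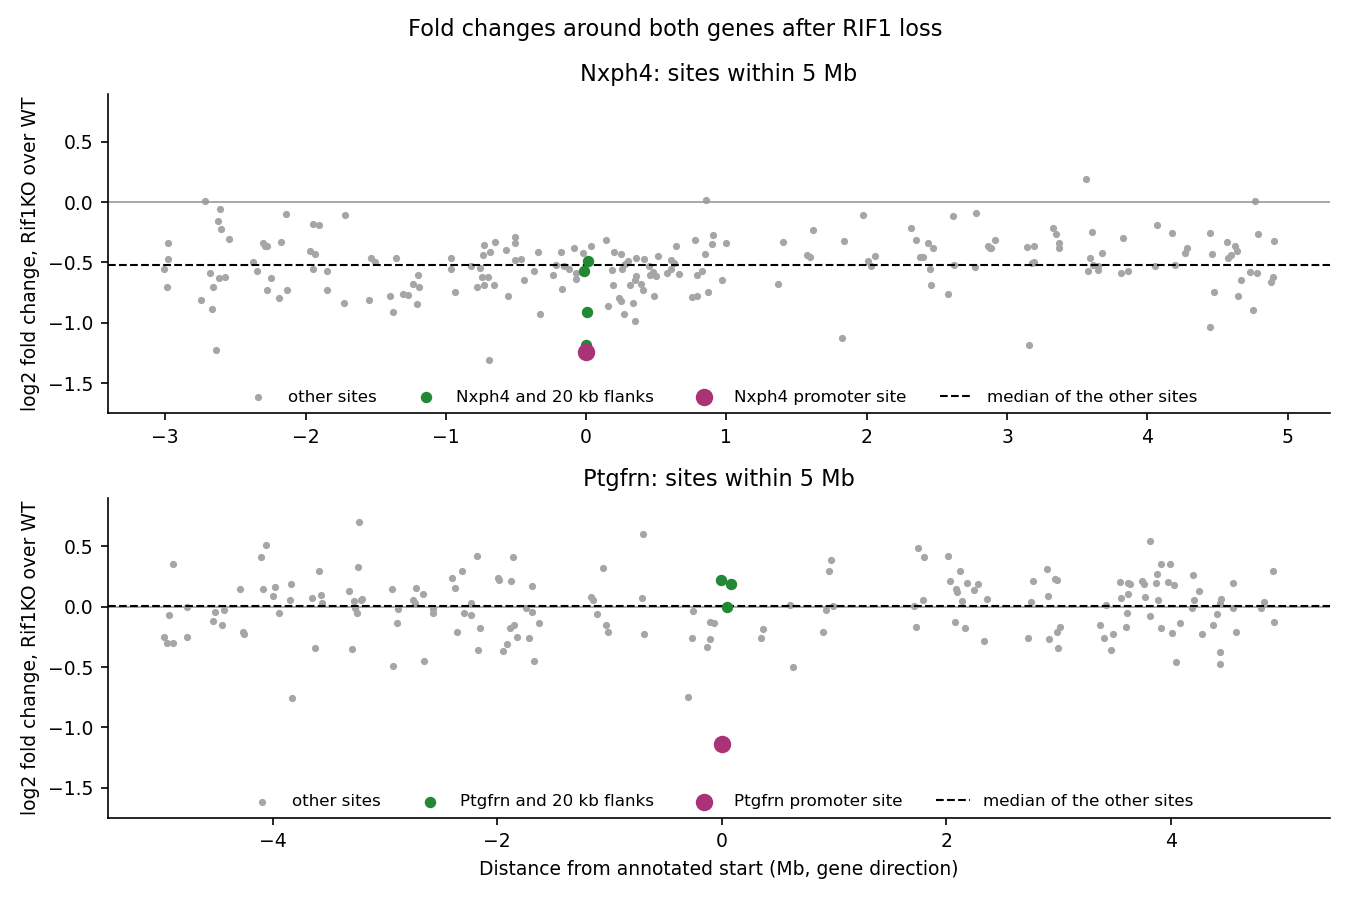
Log2 fold change of Rif1KO over WT (vertical axis) of ISs within 5 Mb of the start of each gene, by distance from the start in Mb in the direction of the gene. Green points are the ISs of the gene and its 20 kb flanks, the purple point is the promoter IS, grey points are other ISs and the dashed line is their median, -0.52 around Nxph4 and 0.01 around Ptgfrn.

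Among the 2485 promoter ISs the median log2 fold change was -0.14, and the values of Nxph4 and Ptgfrn ranked 13th and 15th from the lowest. Over all 39116 ISs they ranked 19th and 28th. Both promoter ISs were denser in WT than the median promoter IS, which had 29.0 RPM. This follows from the choice, which took low ratios and left out ISs that were sparse over WT and Rif1KO together. The promoter IS of Ptgfrn was also rich in G and C over its own length, at 70.6% against a median of 58.2% for promoter ISs.

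**Figure D4:**
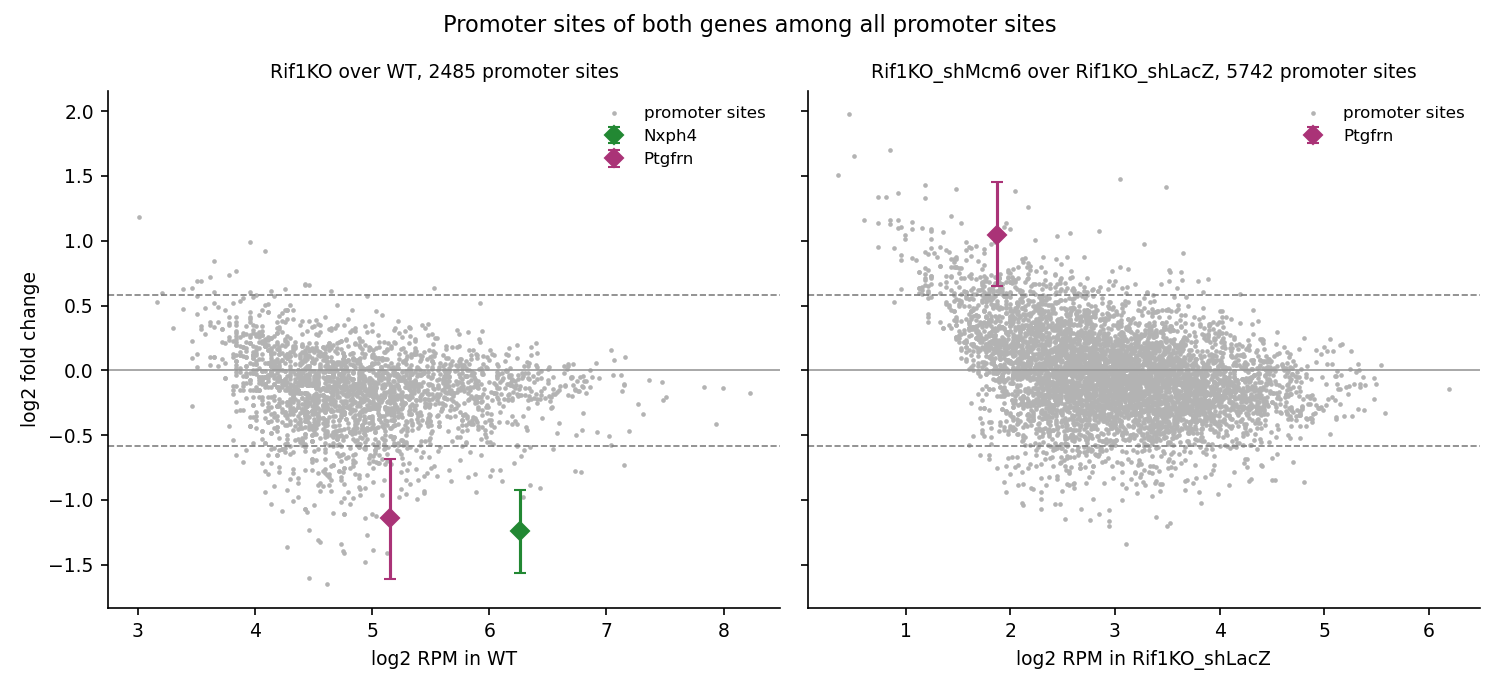
Log2 fold change of promoter ISs (vertical axis) against their log2 RPM in the control condition (horizontal axis), for 2485 ISs of WT and Rif1KO cells on the left and 5742 ISs of the hairpin table on the right. Bars are exact 95% counting intervals and dashed lines 1.5-fold. Ptgfrn lies at -1.14 on the left and 1.05 on the right, and Nxph4, at -1.24, has no point on the right.

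The hairpin contrast compared Mcm6 depletion with its control in cells that already lacked RIF1, and its values had no part in the choice of the genes. Here the promoter IS of Ptgfrn was denser with the Mcm6 hairpin. This IS (chr3:100914315-100914785, 471 bp, 114 bp before the start and intergenic) shares 346 bp with the promoter IS of the other table. It had 77 reads in Rif1KO_shLacZ and 178 in Rif1KO_shMcm6, or 3.65 RPM (2.88 to 4.57) and 7.54 RPM (6.47 to 8.73). The log2 fold change was 1.05 (0.65 to 1.45), the 35th highest of 5742 promoter ISs and the 1096th highest of 129937 ISs. With both replicates pooled no spread between replicates can be set beside it. Summed over both ISs within 1 kb of the start, the log2 fold change was 0.77. Outside the window, the median log2 fold change was 0.24 over 8 ISs within 100 kb and 0.12 over 54 within 500 kb. Within 5 Mb it was -0.03 over 549 ISs, of which 547 were at or below the promoter IS.

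For the hairpins, 4.8% of all ISs and 4.96% of promoter ISs were higher by 1.5-fold or more, and 1.51% of all ISs were lower. The promoter IS of Ptgfrn was called in Rif1KO_shMcm6 and not in Rif1KO_shLacZ, and of the 1413 promoter ISs of which this is true, 17.2% were higher by 1.5-fold or more. In Rif1KO_shLacZ only 9.25% of ISs were as sparse or sparser, and in Rif1KO_shMcm6 59.1% were.

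The other 6 ISs at Ptgfrn did not pass 1.5-fold in either direction. The intronic IS nearest to the promoter, 712 bp into the gene, had 4.41 RPM in Rif1KO_shLacZ and 6.23 RPM in Rif1KO_shMcm6 (0.50, 0.11 to 0.89), and it too was called with the Mcm6 hairpin only. The upstream IS (chr3:100920348-100921699, 1352 bp, 6147 bp before the start) was the densest at 19.8 and 17.5 RPM (-0.18, -0.38 to 0.02). Per kb of length, however, it had 14.6 and 12.9 RPM against 7.76 and 16.0 RPM at the promoter IS, so that the promoter IS was the sparser one with the LacZ hairpin and the denser one with the Mcm6 hairpin.

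Near the 3' end of Ptgfrn, 3 ISs in exon and intron sequence had log2 fold changes of -0.21, 0.17 and -0.46, and the IS by Cd101 had -0.20. The lowest of these, in an intron, had 6.45 RPM in Rif1KO_shLacZ and 4.70 RPM in Rif1KO_shMcm6 (-0.46, -0.83 to -0.08). Summed, the other 6 ISs had 1105 and 1162 reads and a log2 fold change of -0.09 (-0.21 to 0.03). The promoter IS differed from them by 1.14 ± 0.21 (counting SE; 0.73 to 1.54). Between the hairpin groups, this IS was called in Rif1KO_shMcm6 only, where it was denser, which favours a positive difference. The interval does not account for that. Its share of the reads of the window was 6.51% (5.24 to 8.07%) with the LacZ hairpin and 13.3% (11.6 to 15.2%) with the Mcm6 hairpin. The within-window share of the promoter IS was lower in Rif1KO than in WT and higher with the Mcm6 than with the LacZ hairpin. The first direction restates the choice of the gene, and the second rests on an IS called with the Mcm6 hairpin only. Densities are not compared between the tables, since each was scaled to its own set of ISs.

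Among 1856 promoter ISs with exactly 1 partner in each table, 125 were lower by 1.5-fold or more in Rif1KO than in WT and 16 were higher by that much with the Mcm6 hairpin. Ptgfrn was 1 of 5 in both groups, which are 4.0% of the former and 31.3% of the latter. The others were Mex3d, Lrrc16b, 2610109H07Rik and Ascl2, named after their values were seen, and 8 promoter ISs were lower in both contrasts. These shares are to be read beside 125 and 16 of all 1856, and no association was tested. The contrasts share no library. The promoter IS of Ptgfrn, however, was listed in WT and not in Rif1KO, and in Rif1KO_shMcm6 and not in Rif1KO_shLacZ. It thus entered each table through the condition where it was denser.

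Nxph4 had 7 ISs in the hairpin table but none at its promoter, so the densest WT IS of this gene has no value there. Of the 2485 promoter ISs of WT and Rif1KO cells, 522 had no overlapping IS in the hairpin table. Of the 131 at least as dense in WT as that of Nxph4, 21 had none, or 16.0% (95% Wilson interval 10.7 to 23.3%). Of the 209 that were lower by 1.5-fold or more, 79 had none, or 37.8% (31.5 to 44.5%). The pooled hairpin columns held more reads in ISs than the others, over a larger set of ISs, and the list for each hairpin held more ISs, 99874 and 115520 of the merged table against 25771 and 33576 for WT and Rif1KO.

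The 7 ISs at Nxph4 were sparse, between 3.26 and 5.65 RPM over both hairpin conditions, and 0 passed 1.5-fold. The upstream IS, which was less dense in Rif1KO than in WT, was present here too (chr10:126973531-126973962). It had 4.13 RPM in Rif1KO_shLacZ and 4.45 RPM in Rif1KO_shMcm6 (0.11, -0.32 to 0.53). An intronic IS 3652 bp into the gene had 3.99 and 4.19 RPM (0.07, -0.36 to 0.51), and an IS in the last part of the gene, over coding and UTR sequence, was the highest ratio with 4.41 and 5.30 RPM (0.26, -0.14 to 0.67). The lowest ratio lay in Shmt2, with 5.60 and 4.03 RPM (-0.48, -0.88 to -0.07). Summed, the 7 ISs had a log2 fold change of -0.12 (-0.28 to 0.03), which includes 0. In this contrast chromosome 10 did not split, and its median was -0.03.

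The lists of ISs name the replicate peaks behind each IS by number, and those numbers ran along the genome with 0 inversions. A gap in them therefore tells how many peaks of a replicate lay between listed neighbours without being listed. At the start of Nxph4, 1 replicate of Rif1KO_shLacZ had 0 such peaks and the other had 2, and 1 replicate of Rif1KO_shMcm6 had 1 and the other 0. So 1 replicate of each hairpin group had no peak over the promoter of Nxph4, at peak calling thresholds set without an input library. In WT and in Rif1KO both replicates had one.

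All 5 ISs at Nxph4 were listed in WT and 2 of them in Rif1KO, the promoter IS and the outermost 3' one. Of all 25771 ISs listed in WT, 5540 were not listed in Rif1KO. The upstream IS of Nxph4 and the IS in Lrp1 lay between the same listed neighbours, where 1 Rif1KO replicate had 1 unlisted peak in all and the other 0. Around the IS beyond the 3' end, 1 replicate had 0 unlisted peaks and the other 1. For the promoter of Ptgfrn the numbers settle less. The Rif1KO replicates had 5 and 6 unlisted peaks between neighbours 48194 and 255756 bp away, and those of Rif1KO_shLacZ had 3 and 4 between neighbours 65002 and 19907 bp away, so a peak at the promoter in any of these replicates can be neither placed nor excluded.

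The families and neighbours of the genes gave few promoter ISs to set beside them. Of 6 neurexophilin and neurexin genes, which encode a ligand family and its synaptic receptors, 2 had a promoter IS in WT and Rif1KO cells, Nxph3 at -0.48 (-0.94 to -0.03) and Nrxn2 at -0.38 (-0.70 to -0.07). Their median was -0.43, beside -0.14 over all promoter ISs. Among the hairpin ISs, Nxph1 had a log2 fold change of -0.16, Nxph3 of -0.17 and Nrxn2 of -0.30, beside a median of -0.04 over all promoter ISs. None of these values of Nxph1, Nxph3 and Nrxn2 passed 1.5-fold.

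Of 8 genes for EWI proteins, tetraspanins and the prostaglandin F receptor, only Cd101 had a promoter IS in either table, at 0.18 and -0.20. Igsf3, another EWI gene of chromosome 3, had 1 IS in WT and Rif1KO cells, within the gene, at -0.75. Of the 4 protein-coding neighbours of Nxph4, Lrp1 and Stac3 had promoter ISs, at -0.38 (-0.76 to -0.01) and -0.37 (-0.85 to 0.12), and Shmt2 and Ndufa4l2 had none. The median of the stretch of chromosome 10 was -0.45 over all its ISs and -0.61 over its 136 promoter ISs. In the hairpin table the promoter IS of Lrp1 had 8.92 RPM in Rif1KO_shLacZ and 5.0 RPM in Rif1KO_shMcm6 (-0.84, -1.18 to -0.50), the lowest of 46 ISs within 500 kb of Nxph4 outside its own window.

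Over the 4 conditions the promoter ISs nearest to that of Ptgfrn among 1856, by Euclidean distance in log2 RPM, were those of 5730522E02Rik (0.63), Nfatc1 (0.69) and Zbtb4 (0.72). Their log2 fold changes were -0.70, -0.98 and -0.67 in Rif1KO over WT and 0.39, 0.17 and 0.23 with the Mcm6 hairpin. Each was of smaller size than that of Ptgfrn, which its choice by a low ratio favours in Rif1KO over WT. The same measure cannot be had for Nxph4. Over WT and Rif1KO only, which was added after the missing value was seen, its nearest among 2485 promoter ISs were Gamt (0.28), Pgk1 (0.29) and Oaz1 (0.31), with log2 fold changes of -0.85, -0.98 and -0.81. Gamt and Oaz1 lie in the same stretch of chromosome 10 and Pgk1 on chromosome X. Over WT and Rif1KO only, the nearest to Ptgfrn were Atp2b1 (0.13), Syde1 (0.15) and Chd4 (0.20), with log2 fold changes of -0.96, -1.13 and -0.86. The study's own amplicons for MCM5 binding, 5 at ISs lower in Rif1KO and 4 at unchanged ISs, gave 0 within either gene and its flanks.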

How the data were processed

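Per the labels and the study's methods, the authors trimmed reads with Trim Galore 0.6.4, aligned them to mm9 with Bowtie 1.2.3, kept unique alignments, called peaks per replicate with MACS without input, intersected replicates with BedTools and kept peaks inside ClusterScan clusters. The deposited values are log2 RPM (reads per 1000000), 1 pooled value per condition, and the linear values sum to 1000000. The deposited lists of ISs carry other columns with the numbers and names of the replicate peaks. The authors' category of fold change was not used. Values were whole multiples of 1 read, to within 1e-06 of a read, for 100% of ISs, which gave the reads behind the exact intervals (Python 3.11.15, scipy 1.17.1).

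The threshold of 1.5-fold follows the study. Promoter ISs lie within 1 kb of a protein-coding start. Chromosomes were split where mean fold changes on both sides differed by a t of 12 or more, keeping 30 or more ISs and 5 Mb a side, and this was tested on simulated data. With 1 value per condition no test across replicates was possible and no p-value is given. Members and gene lists were chosen with earlier results of these data known. Named were both genes, the coding genes of their flanks, the family lists and the 3 nearest promoter ISs. A gene of these lists and a promoter sequence are not reported here.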

Additional observations from a re-analysis of the deposited data

How the results depend on the processing

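Of 78 alternative values for 33 results, 55 stayed the same, 23 moved and 0 reversed. Promoter fold changes and promoter-minus-other differences kept their direction throughout. For Rif1KO over WT the genes were chosen by that direction, so this shows little. The hairpin contrast had no part in the choice. There the Ptgfrn promoter fold change ranged from 0.77 to 1.09 and the promoter-minus-other difference from 0.93 to 1.23. The value of 0.77 summed both ISs within 1 kb of the start and was added later. The promoter fold change of Nxph4 (-1.24) became -0.72 when centred on ISs within 5 Mb and -0.79 when centred on the stretch of chromosome 10, an alternative added after seeing the data. Shares moved with the window because reads of other ISs enter or leave it. With 50 kb flanks the promoter share was 27.4% in WT and 19.6% in Rif1KO for Nxph4, and 3.89% with shLacZ and 7.81% with shMcm6 for Ptgfrn. With the gene body only it was 62.3% in WT and 42.9% in Rif1KO for Ptgfrn, and with ISs of exactly 1 partner it was 47.0%, 25.9%, 12.3% and 24.8% in WT, Rif1KO, shLacZ and shMcm6. At a 2-fold threshold 0.189% of ISs were lower and 0.0971% higher in Rif1KO, and 0.0531% lower and 0.969% higher with shMcm6. Without the sparsest quartile, 1.45% were higher in Rif1KO, and 0.906% lower and 3.0% higher with shMcm6. With log2(RPM + 1), 0.554% were lower and 2.95% higher with shMcm6. When 50% of both ISs had to overlap, 1 in place of 2 Ptgfrn ISs of WT and Rif1KO cells was in the shMcm6 list, and 1 in place of 2 of the hairpin table in the WT list. The gene body of Nxph4 held no other IS and gave no value. Depth limits single ISs to the counting intervals given. No paired analysis was possible because both replicates were pooled into 1 value per condition, and for the same reason no replicate could be left out.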
